A study of Mus musculus with 2 samples.

Results

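The complement system is a set of plasma proteins and cell surface proteins that tags microbes and damaged cells. The classical pathway starts with C1q and its proteases C1r and C1s, the lectin pathway with sugar-binding proteins and MASP proteases, and both cleave C4 and C2 to build an enzyme that cleaves C3. The alternative pathway builds its own C3-cleaving enzyme from factor B with factor D and properdin, and inhibitors on the cell surface and in solution protect the host's cells. Complement proteins come mainly from the liver, but epithelial cells, fibroblasts and macrophages also make some of them. The 9 genes described here (*C3*, *C4b*, *C2*, *Cfb*, *Cfp*, *Cfd*, *Serping1*, *Cd55* and *Cd59a*) were taken by name from the 49492 genes of the count table, as components and inhibitors made by epithelium and stroma, and each name was found once.

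RNA was sequenced from mammary basal cells of adult wild-type (WT) female mice, with 1 library per group, both labelled day 7. The mice of the CL basal library had received repeated intraperitoneal injections of clodronate liposomes (CL), vesicles that kill the macrophages that take them up. For the Ctrl basal library the sample label gives no treatment, and the series text names saline. Cells were sorted as negative for CD45, CD31 and TER119, positive for CD24 and high for CD29. No antibody against fibroblasts or adipocytes was part of that exclusion, and the number of mice behind each library was not given in the sources used here. In bulk RNA of this kind, fewer cells of a type and less RNA per cell cannot be told apart.

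The Ctrl basal library held 37846008 counts and the CL basal library 38962512. The labelled cell type was checked with 10 basal genes such as *Krt14* and *Myh11*, whose sum was 19778 CPM in Ctrl basal and 20724 in CL basal (CPM, counts scaled for the size of each library). A list of 10 luminal genes had 4454 CPM in Ctrl basal and 2494 in CL basal. No difference below has a replicate check. Each log2 fold change is CL basal over Ctrl basal and carries a 95% exact binomial interval that covers counting error only. The interval assumes independent counts, but low counts were even in 67.9% of cases in Ctrl basal and 68.7% in CL basal, as if the mates of a read pair were counted separately, so an interval with counts halved is given where it changes the reading.

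The difference between libraries was small for most of the 9 genes. Over both libraries together, 8 of the genes had at least 20 counts, and of these 0 were at least 2-fold lower and 0 at least 2-fold higher in CL basal. Among all 17356 genes of the table with that many, 4.78% were at least 2-fold lower and 2.07% at least 2-fold higher. At 1.5-fold, *C4b* and *Cfp* were higher and *Cd55* was lower, against 6.34% of all tested genes higher and 11.7% lower. The median log2 fold change of the 8 genes was 0.12, beside -0.01 for all tested genes. Large folds are rarer among abundant genes: of the 7097 genes with at least 1000 counts, 1.06% were at least 1.5-fold higher and 2.21% at least 1.5-fold lower, and of the 5 complement genes in that class *C4b* was higher and *Cd55* lower by that measure.

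**Figure D1:**
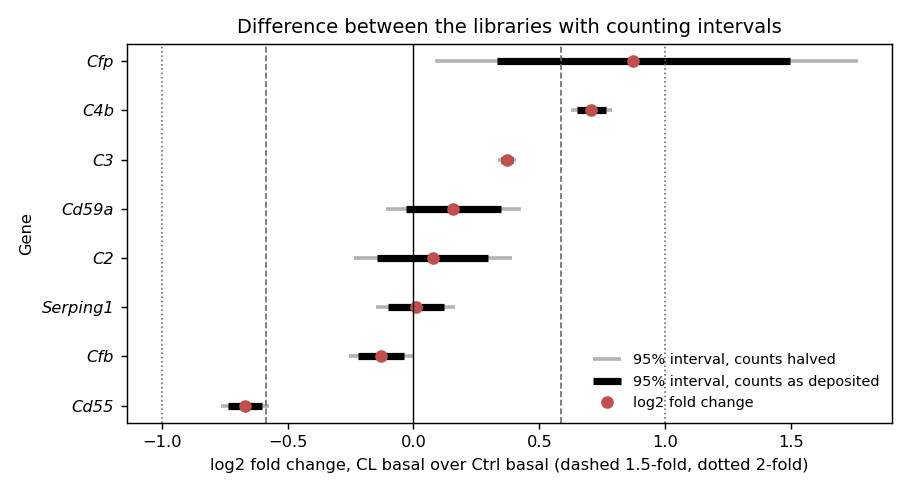
Log2 fold change of CL basal over Ctrl basal (x axis) for the 8 complement genes with at least 20 counts (y axis), with 1 library per group. Points are the values, black bars the 95% exact binomial intervals of the counts, and grey bars the intervals with counts halved. *C4b* at 0.71 and *Cd55* at -0.67 lie on opposite sides with narrow bars, and *Cfp* at 0.87 has the widest bar.

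*C3* (chromosome 17, 57203970 to 57228136, GRCm38, minus strand), the protein on which all complement pathways converge, had 23787 counts in Ctrl basal and 30846 in CL basal. In CPM per kilobase of exon, its level in Ctrl basal was 120.6 (95% Poisson interval 119 to 122.1), and that in CL basal was 156 (154.3 to 157.8). By this level it ranked 439 of 17356 tested genes in Ctrl basal and 336 in CL basal. The gene was 1.29-fold higher in CL basal, a log2 fold change of 0.37 (0.35 to 0.40). With 54633 counts behind it, the interval is narrow, and the value moved more with the choice of scaling than with counting error.

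*C4b* (chromosome 17, 34728380 to 34743882, minus strand), which encodes the C4 protein of the classical and lectin pathways, had 3971 counts in Ctrl basal and 6493 in CL basal. It was 1.63-fold higher in CL basal, a log2 fold change of 0.71 (0.65 to 0.76). *C2* (chromosome 17, 34862604 to 34898265, minus strand), the protease that pairs with C4, had 334 and 353 counts in the same order. Its log2 fold change was 0.08 (-0.14 to 0.30), and no difference was detectable at this depth. Relative to *C2* and per length, *C4b* stood at 8.08 in Ctrl basal and 12.5 in CL basal, a log2 difference of 0.63 (95% Woolf interval 0.41 to 0.85) that does not depend on how the libraries are scaled.

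*C4b* has a near copy, *C4a*, which had 40 counts in Ctrl basal and 29 in CL basal. Of the 50-base stretches in annotated *C4b* transcripts, 34.6% also occur in *C4a* transcripts, and how reads matching both were counted was not given in the sources used here. *C4b*, *C4a*, *Cfb* and *C2* lie together within 170 kb of chromosome 17, in the class III region of the mouse MHC. *C2* and *Cfb* share exons on the same strand with the annotated gene *Gm20547*, over 42.8% of the exonic bases of *C2* and 79.5% of those of *Cfb*. *Gm20547* had 2283 counts in Ctrl basal and 2139 in CL basal, and how reads over the shared exons were assigned was not given in the sources used here, so the values of these genes may not be separate measurements.

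Of the alternative pathway genes, *Cfb* was the most abundant. *Cfb* (chromosome 17, 34856374 to 34862518, minus strand), which encodes factor B, had 2082 counts in Ctrl basal and 1908 in CL basal. Its log2 fold change was -0.13 (-0.22 to -0.04), and with counts halved the interval reached -0.26 to -0.001. *Cfp* (chromosome X, 20925454 to 20931555, minus strand) encodes properdin, which stabilises the alternative pathway enzyme, and had 40 counts in Ctrl basal and 75 in CL basal. It had the highest log2 fold change of the 8 genes, 0.87, and also the widest interval (0.33 to 1.495, and 0.08 to 1.76 with counts halved). *Cfd* (chromosome 10, 79890853 to 79892656, plus strand), the factor D or adipsin gene known for its high expression in fat, had 6 counts in Ctrl basal and 4 in CL basal. The ratio of its libraries was 0.665, with a log2 interval from -2.86 to 1.49, so these counts give no direction.

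Neutrophils and monocytes are known sources of properdin, and a list of 8 neutrophil genes moved with *Cfp*. The list held 46 counts in Ctrl basal and 178 in CL basal, which is 1.20 and 4.63 CPM. Only 2 of its genes had at least 20 counts, *S100a9* with 15 and 66 counts and *Ngp* with 16 and 76, and both were at least 2-fold higher. The defining marker *Ly6g* was at 0 in both libraries, and *Camp* and *Mmp8* were at 0 in Ctrl basal. Summed macrophage genes (10 genes) had 107.7 CPM in Ctrl basal and 127.9 in CL basal, with *Fcgr1* at 0 in Ctrl basal. Neutrophils, monocytes and macrophages carry CD45, and the sort excluded CD45-positive cells. *Ptprc*, the CD45 gene, had 537 counts in Ctrl basal and 521 in CL basal (log2 fold change -0.05, -0.22 to 0.13). The part of either cell type in the counts of *Cfp* was not tested.

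The inhibitors differed among themselves. *Serping1* (chromosome 2, 84765387 to 84775444, minus strand), the C1 inhibitor that inactivates C1r and C1s, had 1328 counts in Ctrl basal and 1340 in CL basal. Its log2 fold change was 0.01 (-0.10 to 0.12). *Cd55* (chromosome 1, 130439027 to 130462744, minus strand), or decay accelerating factor, breaks up the C3-cleaving enzymes on the cell surface and had 4508 counts in Ctrl basal and 2842 in CL basal. It was the lowest of the 8 genes, with 0.629 of the control level and a log2 fold change of -0.67 (-0.74 to -0.60). *Cd59a* (chromosome 2, 104095801 to 104115354, plus strand), which blocks the membrane attack complex, stood at 439 and 491 counts. Its value was 0.16 on the log2 scale (-0.03 to 0.35).

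Near copies matter less for these inhibitors than for *C4b*. Of the 50-base stretches of *Cd55*, 8% occur in *Cd55b*, which had 1 count in Ctrl basal and 3 in CL basal. For *Cd59a* the share in *Cd59b* was 3.87%, and *Cd59b* had 15 and 6 counts. The opposite-strand gene *Gm16083* covers 2.1% of the exonic bases of *Cd55* and had 49 counts in each library. The luminal list, 10 of whose 10 genes were below 0 and 3 at least 2-fold lower, moved in the direction of *Cd55*, and its part in the *Cd55* value was not tested.

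Because *C3* was higher and *Cd55* lower, the ratio between them differed more than either gene. Per length, *C3* stood at 4.98 times *Cd55* in Ctrl basal and 10.2 times in CL basal, a log2 difference of 1.04 (95% Woolf interval 0.97 to 1.11). The ratio of *C3* to *Serping1* was 8.10 and 10.4, a log2 difference of 0.36 (0.25 to 0.47). The ratio of *C3* to *Cd59a* was 19.1 and 22.1, a log2 difference of 0.21 (0.03 to 0.40, and -0.05 to 0.48 with counts halved). These ratios are free of library scaling, and they and the ratio of *C4b* to *C2* were chosen after the values of the genes were seen. Summed per length, the 6 components had a level of 161 in Ctrl basal and 206.9 in CL basal, and the 3 inhibitors 45.4 and 37.3. These sums follow single genes. The higher component sum came from *C3* and *C4b*. *Cfb* was at -0.13 on the log2 scale, with an interval that ended at -0.001 once counts were halved. The lower inhibitor sum came from *Cd55*, while *Serping1* and *Cd59a* had intervals that held 0.

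**Figure D2:**
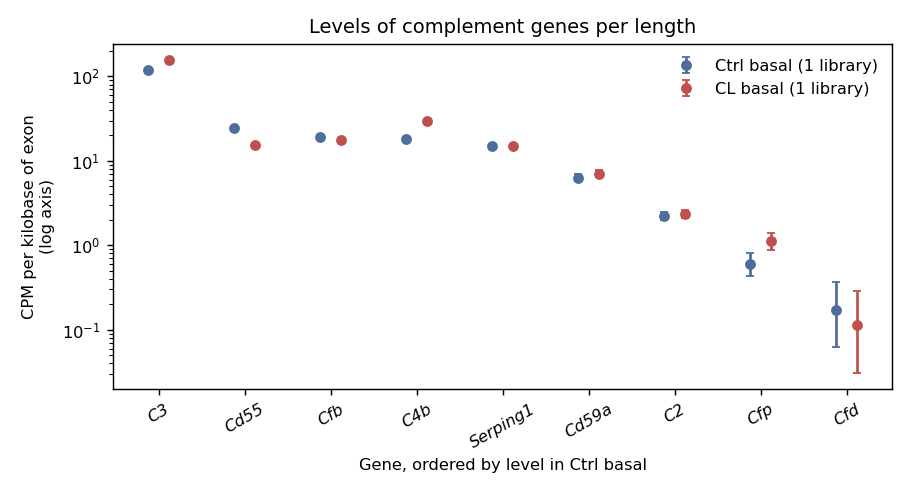
Level of each of the 9 complement genes in CPM per kilobase of exon (y axis, logarithmic), ordered by Ctrl basal (x axis), with 1 library per group. Points are the 2 libraries and bars the 95% Poisson intervals of the counts. *C3* is highest in both libraries at 120.6 and 156, and *Cfd* lowest at 0.17 and 0.113.

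The order of levels per length changed in the middle of the list. In Ctrl basal the order was *C3*, *Cd55* (24.2), *Cfb* (19.2), *C4b* (18.2), *Serping1* (14.9), *Cd59a* (6.32), *C2* (2.25), *Cfp* (0.601) and *Cfd*. The counting intervals of the neighbours *Cfb* and *C4b* overlapped there. In CL basal *C4b* (29.7) took the second place and *Cd55* (15.2) the fourth, between *Cfb* (17.6) and *Serping1* (15.0), and the intervals of *Cd55* and *Serping1* overlapped. *Cd59a* (7.05), *C2* (2.37), *Cfp* (1.12) and *Cfd* kept the last 4 places in the same order.

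The 250 bases before the annotated start are shown for *C3*, the most abundant of the 9 genes, for *Cd55* and *Cfp*, the lowest and the highest by log2 fold change, and for *Cd59a*, which holds the only motif match before a start. Sequences are from RefSeq (GRCm38.p6), whose promoter table matched 5 of the 9 genes (these 4 and *Cfd*), and are written 5′ to 3′ on the strand of the gene, with a motif match in capitals.
C3: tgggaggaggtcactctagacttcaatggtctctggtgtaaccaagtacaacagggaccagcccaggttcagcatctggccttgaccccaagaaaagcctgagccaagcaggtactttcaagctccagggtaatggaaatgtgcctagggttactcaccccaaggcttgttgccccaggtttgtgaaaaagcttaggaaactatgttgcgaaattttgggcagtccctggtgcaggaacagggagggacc
Cd55: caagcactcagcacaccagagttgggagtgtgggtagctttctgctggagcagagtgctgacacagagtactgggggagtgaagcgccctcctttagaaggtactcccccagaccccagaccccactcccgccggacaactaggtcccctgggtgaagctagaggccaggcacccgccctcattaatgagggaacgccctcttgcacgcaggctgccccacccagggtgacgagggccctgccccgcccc
Cfp: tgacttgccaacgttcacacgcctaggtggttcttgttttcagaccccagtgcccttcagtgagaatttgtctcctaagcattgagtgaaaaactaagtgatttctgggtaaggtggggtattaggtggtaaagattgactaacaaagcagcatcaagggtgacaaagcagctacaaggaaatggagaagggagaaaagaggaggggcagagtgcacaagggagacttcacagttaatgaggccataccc
Cd59a: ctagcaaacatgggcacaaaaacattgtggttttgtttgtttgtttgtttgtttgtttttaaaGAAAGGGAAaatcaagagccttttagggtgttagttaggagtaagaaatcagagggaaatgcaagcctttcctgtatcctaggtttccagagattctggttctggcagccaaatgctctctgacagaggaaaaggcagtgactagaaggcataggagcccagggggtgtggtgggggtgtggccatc

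These stretches lie on chr17:57228137-57228386 (*C3*), chr1:130462745-130462994 (*Cd55*), chrX:20931556-20931805 (*Cfp*) and chr2:104095551-104095800 (*Cd59a*). The windows, with 50 further bases after the start, were searched on both strands for letters bound by interferon-regulated factors (GAAANNGAA and TTCNNNGAA), NF-kB (GGNNTTTCC) and C/EBP (TTGCNNCAA) and for TATAAA. *Cd59a* held GAAANNGAA at position -187 from the start, a pattern found in 8.56% of all 32851 windows, and *C3* held TATAAA, 14 bases after the annotated start, found in 13.6%. TTCNNNGAA was found in 8.3% of all windows, GGNNTTTCC in 5.82% and TTGCNNCAA in 2.08%, and these 3 were in none of the 5 windows. The window of *Cd55* was 63.3% G and C with 12 CpG pairs, and those of the other 4 genes held 1 to 3 CpG pairs, beside medians of 52.7% and 7 over all windows.

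Among 48 other genes of the complement system, 25 had at least 20 counts and 12 had no count in either library. Of the 25, 4 were at least 2-fold lower and 0 at least 2-fold higher in CL basal, beside the 4.78% and 2.07% of all tested genes. Of these 4, *C1qc*, *Cd59b* and *Itgax* had under 100 counts over both libraries. The median log2 fold change of the 25 was -0.23, with 17 genes below 0 and 8 above. The proteases of the C1 complex were above 0 and the cell surface receptors mostly below it.

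C1r and C1s are the proteases that C1q activates, and their genes moved in the direction of *C4b*, which C1s cleaves. *C1s1* (chromosome 6, 124530345 to 124542359) had 5050 counts in Ctrl basal and 8324 in CL basal, a log2 fold change of 0.72 (0.67 to 0.77). *C1ra* had 1085 and 1431 counts (0.40, 0.28 to 0.51). The copies *C1s2* (28 and 47 counts) and *C1rb* (151 and 191 counts) were at 0.70 and 0.33, with intervals that held 0 once counts were halved. They are not independent of the first pair, since 48% of the 50-base stretches of *C1ra* occur in *C1rb* and 21.8% of those of *C1s1* in *C1s2*. The opposite-strand gene *Gm16567* covers 18.4% of the exonic bases of *C1s1* and had 1770 and 2753 counts. Over these shared bases, reads of the pair cannot be told apart without strand.

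The 3 genes of C1q, the recognition protein made mainly by macrophages, were near the limit of detection. *C1qa* had 16 counts in Ctrl basal and 12 in CL basal, *C1qb* 12 and 6, and *C1qc* 16 and 6. The log2 fold change of *C1qc* was -1.17, past 2-fold, with an interval from -3.06 to 0.01 that holds 0. Of the lectin pathway, *Masp1* (99 and 71 counts), *Masp2* (118 and 107), *Colec11* (64 and 57) and *Colec12* (406 and 339) had log2 fold changes from -0.47 to -0.14, with intervals that held 0 once counts were halved, and *Tardbp* on the opposite strand covers 54.9% of the exonic bases of *Masp2*. Of the terminal components that form the membrane attack complex, *Hc* (C5) had 87 and 63 counts and *C7* 39 and 33, and the other 5 had under 20 counts.

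*Clu*, the soluble inhibitor clusterin, was the most abundant of the other complement genes. It had 24151 counts in Ctrl basal and 16114 in CL basal. Its log2 fold change was -0.59 (-0.62 to -0.56), just past 1.5-fold. The rodent membrane inhibitor Crry, from *Cr1l*, had 947 and 837 counts (-0.18, -0.32 to -0.05, and -0.37 to 0.01 with counts halved). *Csmd1* had 224 and 337 counts (0.58, 0.34 to 0.84), and *Cd59b* was at -1.09 (-2.98 to 0.12) on 21 counts. *Vtn*, the gene of vitronectin, had 116 and 138 counts, and *Cd46*, a membrane cofactor for C3b cleavage, 15 and 18, both with intervals that held 0. The summed luminal genes were lower in CL basal (4454 and 2494 CPM), and their part in the value of *Clu* was not tested.

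*Cr2*, the complement receptor known from B cells and follicular dendritic cells, showed the largest difference of the 25 genes. It had 171 counts in Ctrl basal and 44 in CL basal, a log2 fold change of -1.91 (-2.47 to -1.48). A list of 8 lymphoid genes held 223 and 206 counts, with *Cd79a* at 49 and 56 and with *Nkg7* at 0 in CL basal. *Itgax*, a chain of complement receptor 4, had 42 and 18 counts (-1.14, -2.11 to -0.40). *Itgam* (55 and 52 counts) and *Itgb2* (111 and 134 counts), the chains of complement receptor 3, had intervals that held 0. The receptors of the C3 and C5 fragments had few counts, with *C3ar1* at 6 and 7, *C5ar1* at 0 in both libraries and *C5ar2* at 25 and 19, an interval that held 0. *Cd93*, first described as a C1q receptor and known from endothelial cells, had 835 and 687 counts (-0.28, -0.43 to -0.14). The sort excluded cells positive for CD31, the endothelial surface protein encoded by *Pecam1*, which had 5503 counts in Ctrl basal and 4266 in CL basal. The summed endothelial genes were lower in CL basal too (540.5 and 436.5 CPM), and their part in the *Cd93* value was not tested.

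**Figure D3:**
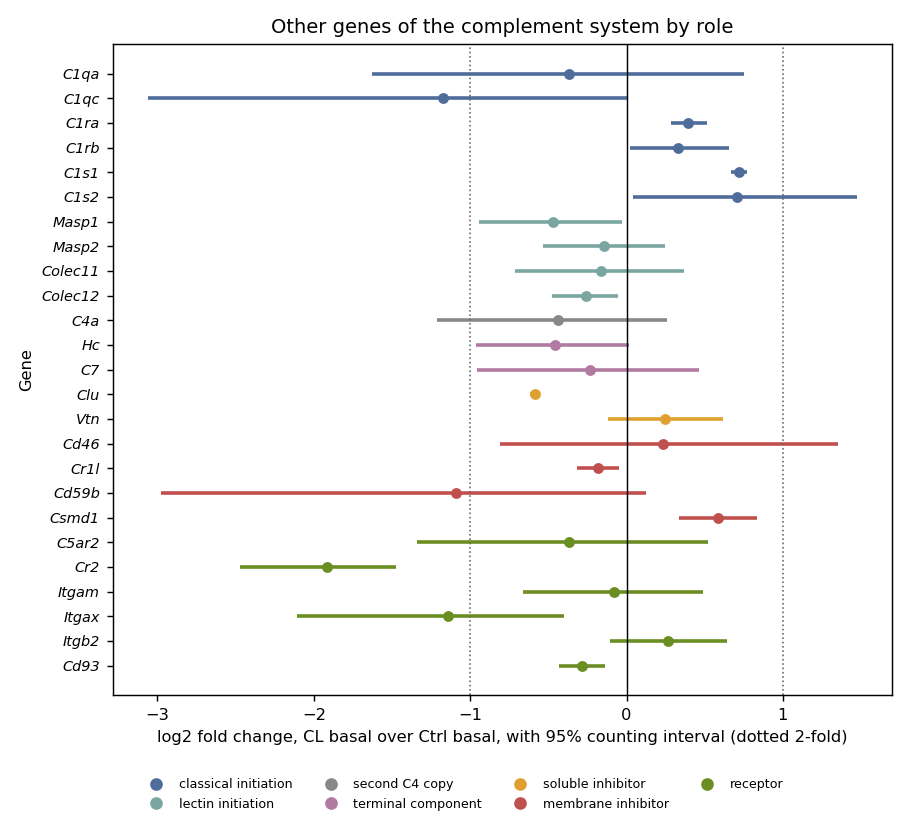
Log2 fold change of CL basal over Ctrl basal (x axis) of the 25 other complement genes with at least 20 counts (y axis), coloured by role, with 95% exact binomial intervals and 1 library per group. *C1s1* at 0.72, *Clu* at -0.59 and *Cr2* at -1.91 have intervals clear of 0, and *C1qc* and *Cd59b* have wide ones that hold it.

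**Figure D4:**
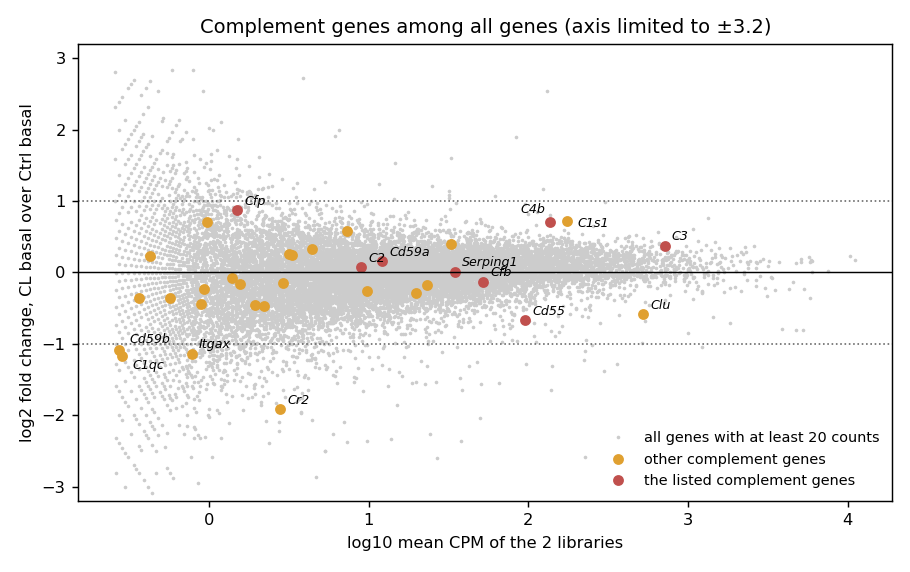
Log2 fold change of CL basal over Ctrl basal (y axis) against the log10 mean CPM of the 2 libraries (x axis) for all 17356 tested genes (grey), the 8 listed complement genes (red) and the 25 others (orange). *C4b*, *C1s1*, *Cd55* and *Clu* lie at the edge of the grey cloud at their abundance, *C2*, *Serping1* and *Cfb* within it, and the axis, limited to 3.2 either way, leaves out 35 genes.

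Lists of marker genes describe what else differed between the libraries. The basal list had a median log2 fold change of 0.09 and the luminal list of -0.86. Of 10 fibroblast genes, 9 were below 0 and *Lum* was at least 2-fold lower (128 counts in Ctrl basal and 34 in CL basal). The fibroblast list summed to 275.4 CPM in Ctrl basal and 223.1 in CL basal, and *Col3a1*, its gene above 0, had 2330 and 2508 counts. The adipocyte list had 125.8 and 92.5 CPM, almost all from *Fabp4* (4648 and 3465 counts), which endothelial cells also express. Of its 8 genes, 5 had at least 20 counts, and 3 of these were at least 2-fold lower: *Plin1* (30 and 12 counts), *Car3* (26 and 4) and *Pck1* (22 and 4). *Lep* had 88 and 52 counts, *Adipoq* 5 and 10, *Cidec* 8 and 6, and *Retn* 0 and 2. The part of fat cells in the counts of *Cfd* was not tested. Of 8 endothelial genes, 6 were below 0, with sums of 540.5 and 436.5 CPM. Of 12 interferon response genes, 12 were above 0 and *Gbp2* (2899 and 6534 counts) and *Tap1* (574 and 1330) were at least 2-fold higher, with sums of 384 and 615.4 CPM. The part of these differences in the values of the complement genes was not tested.

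**Figure D5:**
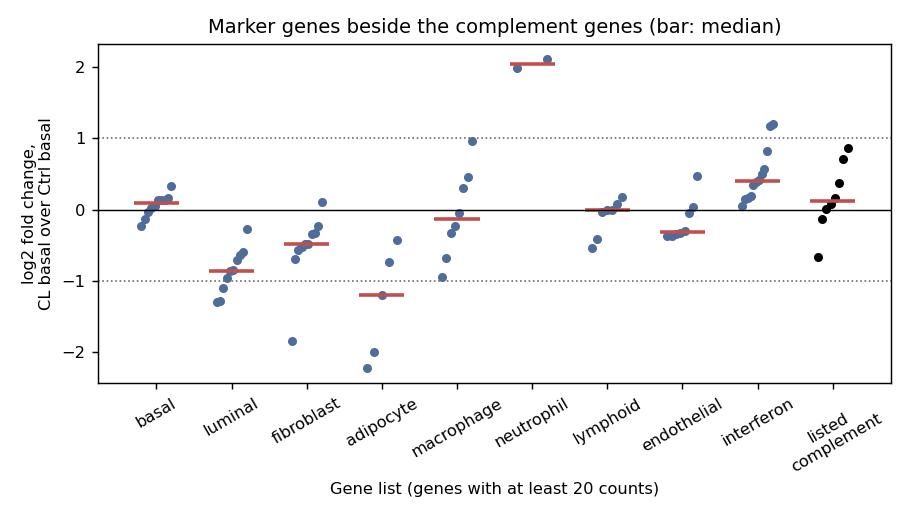
Log2 fold change of CL basal over Ctrl basal (y axis) of marker genes with at least 20 counts, by list (x axis), beside the 8 listed complement genes in black. Points are genes and bars medians. The luminal median is -0.86, the interferon median 0.40 and that of the complement genes 0.12.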

How the data were processed

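Sorted mammary basal cells, from mice given CL and from controls, were sequenced, with 1 library per group. The read counts per gene were deposited by the authors as raw exon counts in a featureCounts-style table with exonic lengths and GRCm38 coordinates. Aligner, annotation release, strand use and filters were not given in the sources used here. The deposited ratio and log2 ratio of the libraries were not used. The span of 8 of the 9 genes equalled that of GENCODE M21.

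Counts were scaled by TMM factors over all genes (edgeR 4.0.16, R 4.3.3), 0.9866 for CL basal and 1.0136 for Ctrl basal. Log2 fold changes used a prior count of 2, and genes needed at least 20 counts over both libraries. A limit of 3 counts is 0.078 CPM in CL basal and 0.0782 in Ctrl basal. Intervals of 95% are exact binomial (Clopper-Pearson), exact Poisson or Woolf intervals (scipy 1.17.1). With 1 library per group no test was made, and calls rest on the fold alone. The calculation was tested on simulated data.

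Named were the 9 genes, other complement genes (those under 20 counts mainly as counts), summed marker lists with their 2 most abundant or past-2-fold genes, and overlapping genes. Markers at or near 0 were named after their values were seen. A gene was left out of the other complement list and is not reported here, and not every gene under 20 counts is named. Genes and lists were chosen with earlier results of these data known. Alternatives were other scalings (DESeq2 1.42.0 among them), prior counts, filters, folds and a trend on mean expression; the share among genes with at least 1000 counts was added after seeing the data.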

Additional observations from a re-analysis of the deposited data

How the results depend on the processing

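Of the 8 genes, 7 kept their sign under every alternative scaling, prior count, filter, trend removal and halving of counts tried. *Serping1* turned to -0.03 with scaling by total counts and to -0.01 without the trend on mean expression. *C4b* (0.63 to 0.74), *Cfp* (0.83 to 0.98) and *Cd55* (-0.73 to -0.63) stayed past 1.5-fold under each of these. *C3* left its counting interval at 0.33 with total counts, 0.41 with the upper quartile and 0.29 without the trend, and *C4b* at 0.63 without the trend. At 1.5-fold in place of 2-fold, 1 of the genes was lower and 2 were higher, and of the other complement genes 5 were lower and 2 higher. Of the other complement genes, 2 were at least 2-fold lower with a prior count of 5, which shrinks low counts most. With at least 100 counts, which leaves out *C1qc*, *Cd59b* and *Itgax*, 1 was. Without a filter on low counts 6 were, and without the trend 3 were. The median of the other complement genes was -0.17 without a filter on low counts, -0.15 with at least 100 counts and -0.18 without the trend. The cause of this was not tested. Over all tested genes the median was -0.04 when scaled by total counts and 0.03 by the upper quartile. No paired analysis was possible because only 1 library stood in each group. The depth is most limiting for *Cfp*, *Cfd*, the C1q genes and *Cd59b*.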

Other observations

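*Susd4*, a membrane inhibitor of C3 cleavage, had 10 counts in Ctrl basal and 0 in CL basal. The upper limit of its 95% interval was -1.17 on the log2 scale. With counts halved that limit was 0.12, so the interval then held 0. *Susd4* was picked out after its values were seen, and had under 20 counts over both libraries. Of the summed level per length of the 9 complement genes, *C3* made up 58.4% in Ctrl basal and 63.9% in CL basal, *Cd55* 11.7% and 6.24%, and *C4b* 8.81% and 12.2%.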
